A study of Homo sapiens with 6 samples.

Results

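The genes described here encode the EGFR receptor family, its ligands, the receptor MET and the feedback inhibitor ERRFI1 in OVCAR8, a cell line from high grade serous ovarian cancer. The members were a list of 10 symbols, namely EGFR, ERBB2, ERBB3, AREG, EREG, HBEGF, TGFA, NRG1, MET and ERRFI1, matched exactly to a table of 14930 genes. Of these, 9 were measured, and EREG was not analysed here. RNA-Seq was performed on 6 samples in 3 groups of 2 replicates after 72 hours. Control cells received DMSO. DZNep cells received DZNep, an inhibitor of S-adenosylhomocysteine hydrolase that lowers EZH2 protein, at 5 μM by the methods of the study (the labels write mM). The shEZH2 cells carried hairpin number 2 against EZH2 under a doxycycline-inducible promoter and received doxycycline at 1 μg/mL by the same methods. Doxycycline-treated cells without this hairpin were not analysed here, so the hairpin, the carrier cell line and doxycycline cannot be told apart in the shEZH2 group. Nothing in the labels says whether replicates came from separate cultures, so the p-values measure only the spread between these samples.

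EGFR, ERBB2 and ERBB3 are receptor tyrosine kinases of 1 family that signal as dimers. HBEGF, TGFA, AREG and EREG bind EGFR after being shed from the cell surface by metalloproteases, and NRG1 binds ERBB3, which has little kinase activity of its own and depends on ERBB2 as partner. MET is a separate receptor tyrosine kinase for hepatocyte growth factor. All feed the RAS-MAPK and PI3K pathways, which induce inhibitors of the same receptors, among them ERRFI1 (MIG6), a cytosolic protein that blocks the EGFR kinase domain.

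The deposited values are whole numbers that add up to between 999956 and 1000068 in each sample. They are therefore scaled values and not read counts, the number of reads behind them is unknown, and values of different genes were not compared because it is not stated that they are per transcript length. Values printed below are as deposited. For the test they were divided by a scaling factor per sample (trimmed mean of M values, 0.920 to 1.12) and taken as log2(value + 1), which understates changes of low genes. A gene entered the test if 2 or more samples reached a value of 10, which left 9671 genes and 7 of the 9 members. AREG and TGFA stayed below this limit. Calls are those with a two-sided limma p that stayed under 0.05 after Benjamini-Hochberg adjustment over the 9671 genes, SE is the standard error of the log2 fold change, and fold values are taken on the log2(value + 1) scale. EZH2, the targeted gene, read 36 and 42 in control, 26 and 26 with DZNep and 18 and 18 with shEZH2. Of 10 ovarian cancer markers 9 were measured, and their summed value was 2594 to 3237 in control, 7421 to 8613 with DZNep and 3576 to 3584 with shEZH2. The higher sums came from KRT8 and KRT18. KRT7 read 597 and 499 in control, 585 and 503 with DZNep and 355 and 350 with shEZH2, and MSLN read 176 and 150, 45 and 36, and 102 and 95. PAX8 read 10 to 19 over the 6 samples, WT1 read 1 or 2, EPCAM 5 to 12 and FOLR1 13 to 26. CDH1 read 1 and 0 in control, 7 and 8 with DZNep and 1 and 2 with shEZH2. Of the markers of other cell types, the leukocyte list (2 of 4 measured, nearly all of it CD68) summed to 69 to 73 in control, 16 to 20 with DZNep and 30 to 34 with shEZH2. The fibroblast list (2 of 4 measured, nearly all of it PDGFRB) summed to 12 in both control samples, 44 to 57 with DZNep and 35 to 37 with shEZH2, and the endothelial list (1 of 3 measured) to at most 2. The part of these differences in the results below was not tested. In bulk RNA, a lower value can come from fewer cells that express a gene or from less RNA per cell, and the samples cannot tell these apart.

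EGFR was lower with both treatments and fell most with DZNep. EGFR (ENSG00000146648.21) lies on chromosome 7 of GRCh38 from 55019017 to 55211628 on the plus strand (GENCODE v44), and the antisense gene EGFR-AS1 lies within this interval. Its values were 83 and 107 in control, 21 and 17 with DZNep and 38 and 32 with shEZH2. Both treated groups lay below both control samples, and the DZNep samples lay below the shEZH2 samples. EGFR fell 5.02-fold with DZNep, a log2 fold change of -2.33 (SE 0.22, n = 2, limma adjusted p = 0.00026). With shEZH2 it fell 2.75-fold, a log2 fold change of -1.46 (SE 0.22, n = 2, limma adjusted p = 0.014). Only 1.47% of the tested genes had a lower log2 fold change with DZNep, and 0.869% had one with shEZH2. The shEZH2 call was lost without shEZH2 replicate 1 (limma adjusted p = 0.087) or replicate 2 (limma adjusted p = 0.13), while the log2 fold changes were then -1.55 and -1.36.

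**Figure D1:**
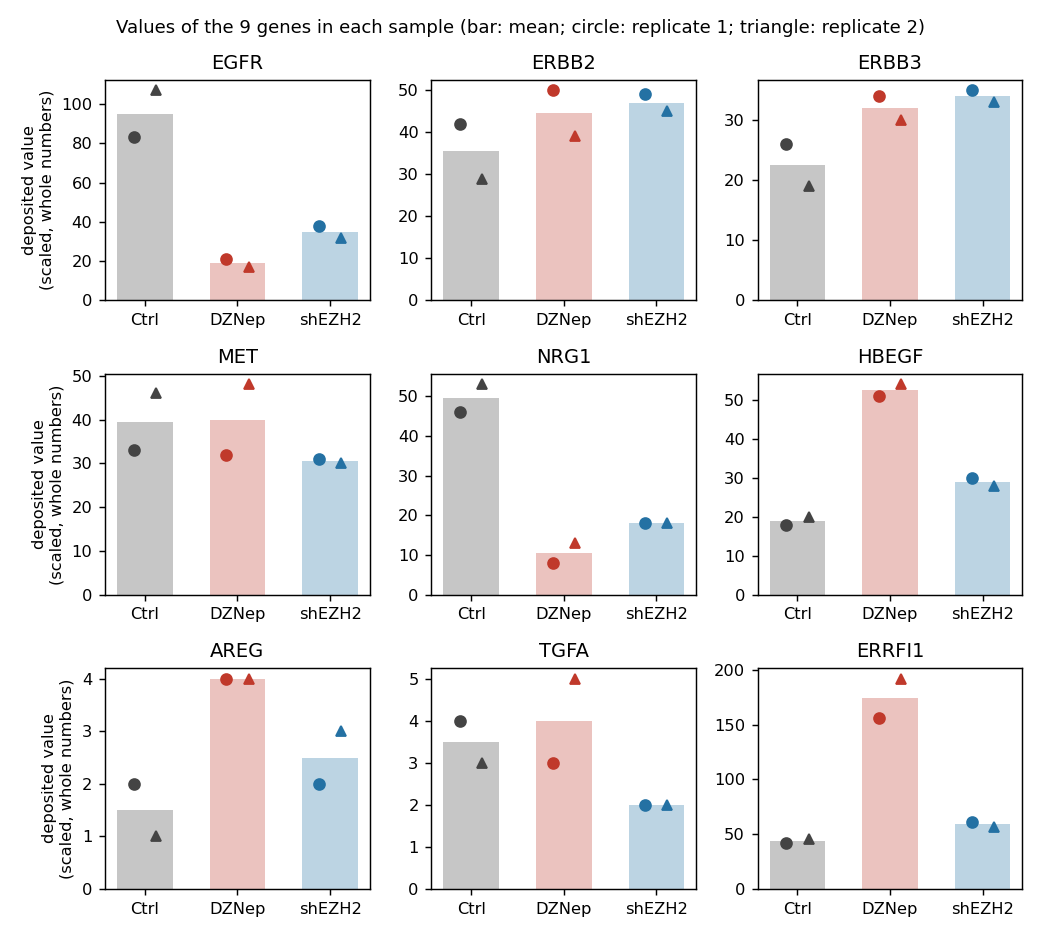
Deposited value of each measured gene (vertical axis, scaled whole numbers, starting at 0) in control, DZNep and shEZH2 cells. Bars are means of 2 samples, circles replicate 1 and triangles replicate 2. EGFR and NRG1 stand highest in control, HBEGF and ERRFI1 highest with DZNep, and AREG and TGFA never exceed 5.

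ERBB2 and ERBB3 did not follow EGFR. ERBB2, the family member without a known ligand (chromosome 17, 39687914 to 39730426), read 42 and 29 in control, 50 and 39 with DZNep and 49 and 45 with shEZH2. The control and DZNep samples of ERBB2 overlapped, whereas both shEZH2 samples lay above both control samples. Neither contrast was called, with log2 fold changes of 0.26 for DZNep (95% interval -0.38 to 0.90, limma adjusted p = 0.48) and 0.37 for shEZH2 (95% interval -0.28 to 1.01, limma adjusted p = 0.42). The ERBB2 interval takes in PGAP3 and MIEN1 on the opposite strand, and the sources used here do not say whether genes were quantified by strand. ERBB3 (chromosome 12, 56076799 to 56103505) read 26 and 19 in control, 34 and 30 with DZNep and 35 and 33 with shEZH2. All 4 treated samples lay above both control samples, but the spread between the control samples was wide. For both ERBB2 and ERBB3, replicate 1 exceeded replicate 2 in control and with DZNep alike. With a replicate term in the fit, neither was called with DZNep (limma adjusted p = 0.25 and 0.062), and ERBB3 was called with shEZH2 (limma adjusted p = 0.036). Replicate numbers did not run together between control and shEZH2 (correlation of deviations -0.02). A shared replicate term thus has no basis in the shEZH2 contrast, and no conclusion is drawn from that call. The log2 fold changes of ERBB3 were 0.43 with DZNep (95% interval -0.14 to 1.01, limma adjusted p = 0.19) and 0.54 with shEZH2 (95% interval -0.03 to 1.12, limma adjusted p = 0.20). Without Ctrl replicate 1, the higher control sample, the DZNep value of ERBB3 was 0.73 and was called (limma adjusted p = 0.041), and without Ctrl replicate 2 it was 0.14 (limma adjusted p = 0.71). The shEZH2 value was 0.84 and 0.25 in these settings and was not called in either (limma adjusted p = 0.056 and 0.65).

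MET was the receptor with the smallest difference with DZNep. MET (chromosome 7, 116672196 to 116798377, plus strand) read 33 and 46 in control, 32 and 48 with DZNep and 31 and 30 with shEZH2. The control and DZNep samples spanned nearly the same range, and the shEZH2 samples lay just below both control samples. The log2 fold change with DZNep was -0.06 (95% interval -0.52 to 0.40, limma adjusted p = 0.82), and its sign turned to 0.0085 with the values as deposited. With shEZH2 it was -0.39 (95% interval -0.85 to 0.07, limma adjusted p = 0.24). MET replicate 2 exceeded replicate 1 by 0.31 in control and 0.32 with DZNep on the log2 scale, more than the difference between these groups, against 0.01 between the shEZH2 replicates.

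Among the ligands, NRG1 fell and HBEGF rose. NRG1 (ENSG00000157168.22) read 46 and 53 in control, 8 and 13 with DZNep and 18 and 18 with shEZH2. No treated sample reached the level of either control sample. NRG1 fell 4.71-fold with DZNep (log2 fold change -2.24, SE 0.20, n = 2, limma adjusted p = 0.00021) and 2.74-fold with shEZH2 (log2 fold change -1.45, SE 0.20, n = 2, limma adjusted p = 0.011). These sizes were close to those of EGFR in each contrast. As for EGFR, the shEZH2 call was lost without shEZH2 replicate 1 (limma adjusted p = 0.11) or replicate 2 (limma adjusted p = 0.10).

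HBEGF, on chromosome 5 from 140332843 to 140346603 on the minus strand, read 18 and 20 in control, 51 and 54 with DZNep and 30 and 28 with shEZH2. The 3 groups did not overlap. HBEGF rose 2.55-fold with DZNep (log2 fold change 1.35, SE 0.17, n = 2, limma adjusted p = 0.00085). With shEZH2 the log2 fold change was 0.54 (95% interval 0.14 to 0.94), which was not called (limma adjusted p = 0.090).

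AREG and TGFA were near the limit set by rounding. AREG read 2 and 1 in control, 4 and 4 with DZNep and 2 and 3 with shEZH2, so the DZNep samples lay above all other samples. Rounding to whole numbers alone leaves the log2 ratio of its DZNep and control means anywhere between 0.81 and 2.17. TGFA read 4 and 3 in control, 3 and 5 with DZNep and 2 and 2 with shEZH2. The control and DZNep samples of TGFA overlapped, and for shEZH2 rounding leaves the log2 ratio of means to control between -1.42 and -0.26. Neither gene entered the main test. With no filter on low values both entered, and 5 members were called with DZNep, against 4 in the main fit. The added call was AREG or TGFA, since ERBB2, ERBB3 and MET were not called there (limma adjusted p = 0.50, 0.21 and 0.84).

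ERRFI1 showed the largest rise among the members. This inhibitor of the EGFR kinase, on chromosome 1 from 8004404 to 8026309 on the minus strand, read 42 and 46 in control, 156 and 192 with DZNep and 61 and 57 with shEZH2. DZNep samples stood far above the rest, and shEZH2 samples lay between the groups without overlap. ERRFI1 rose 3.69-fold with DZNep (log2 fold change 1.88, SE 0.15, n = 2, limma adjusted p = 0.00015), and 98.5% of the tested genes had a lower log2 fold change. The shEZH2 value was 0.37 (95% interval 0.01 to 0.72, limma adjusted p = 0.17) and was not called.

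The promoters of the receptor that fell, of the ligand and inhibitor that rose with DZNep and, for comparison, of MET are shown because these genes share a dimer system or pathway but moved differently. Each sequence is the 250 bases before the RefSeq start site (GRCh38.p14), 5′ to 3′ on the gene's strand, and each of these start sites coincides with the gene's GENCODE start. Capitals mark matches to GGGCGG, the core of the SP1 site, on either strand. The AP-1 motif TGANTCA and the E-box CACGTG were searched on both strands too, and neither matched in these 4 windows. EGFR is chr7:55018767-55019016 (plus strand), HBEGF chr5:140346604-140346853 (minus strand), ERRFI1 chr1:8026310-8026559 (minus strand) and MET chr7:116671946-116672195 (plus strand).
EGFR: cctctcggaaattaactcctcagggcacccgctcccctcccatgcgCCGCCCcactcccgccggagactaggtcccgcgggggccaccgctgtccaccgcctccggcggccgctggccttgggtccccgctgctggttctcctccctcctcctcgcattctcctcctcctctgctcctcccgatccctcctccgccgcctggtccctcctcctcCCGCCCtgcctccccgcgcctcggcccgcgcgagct
HBEGF: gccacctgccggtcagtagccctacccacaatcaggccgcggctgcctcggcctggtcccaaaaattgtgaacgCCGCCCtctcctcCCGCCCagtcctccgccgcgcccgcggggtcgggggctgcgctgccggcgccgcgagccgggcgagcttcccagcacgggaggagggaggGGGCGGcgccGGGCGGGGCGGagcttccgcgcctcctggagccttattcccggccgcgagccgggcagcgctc
ERRFI1: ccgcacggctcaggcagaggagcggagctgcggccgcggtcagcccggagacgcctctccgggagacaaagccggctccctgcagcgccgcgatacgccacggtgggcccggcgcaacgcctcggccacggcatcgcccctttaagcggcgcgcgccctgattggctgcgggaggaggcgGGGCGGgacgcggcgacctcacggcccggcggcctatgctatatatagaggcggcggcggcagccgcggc
MET: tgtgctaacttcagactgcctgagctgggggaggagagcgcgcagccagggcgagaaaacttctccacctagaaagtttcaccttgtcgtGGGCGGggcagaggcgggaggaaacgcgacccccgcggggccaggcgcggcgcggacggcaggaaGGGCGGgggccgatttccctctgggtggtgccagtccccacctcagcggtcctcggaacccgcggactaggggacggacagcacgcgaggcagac
The SP1 core occurred 2 times in the EGFR window, 5 times in HBEGF (where 2 matches overlap by 1 base), 1 time in ERRFI1 and 2 times in MET. All 4 windows hold it, as do 42.6% of the 35116 RefSeq promoter windows of this length, against 6.57% for TGANTCA and 6.34% for CACGTG. Their GC content was 73.6% for EGFR, 76.4% for HBEGF, 75.2% for ERRFI1 and 68.4% for MET, with a median of 58.0% over all windows. Among these 4 windows the motif was present in a gene that fell, in genes that rose with DZNep and in a gene that was not called. The window of ERBB2, also not called and not printed here, has 0 matches to GGGCGG and 1 to TGANTCA. Unlike the 4 printed windows, it lies before a start site (39688094) that does not coincide with the gene's GENCODE start. Promoters of NRG1 and ERBB3 were not analysed here, and any part of these motifs in the changes was not tested. A further EGFR start site listed by RefSeq, at position 55109839, has 2 matches to TGANTCA and none to GGGCGG in its 250 bases.

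Counted together, 2 of the 7 tested members rose with DZNep (HBEGF and ERRFI1), 2 fell (EGFR and NRG1) and 3 were not called. In that contrast 22.4% of the 9671 tested genes were called higher and 20.4% lower. With shEZH2 none of the 7 was called higher and 2 were called lower (EGFR and NRG1), where 3.91% of tested genes were higher and 4.53% lower. Of the 5 others with shEZH2, HBEGF and ERRFI1 had an unadjusted p of 0.015 and 0.044 from limma. At an additional limit of an absolute log2 fold change above 1, 4 members were past it with DZNep and 2 with shEZH2, where 22.2% and 4.75% of the tested genes were. The median absolute log2 fold change was 1.35 for the members and 0.53 for all tested genes with DZNep, and 0.54 and 0.31 with shEZH2. The members were chosen with earlier results of these data known. Their counts and medians therefore describe the values, and their difference from all tested genes was not tested. Both contrasts use the same control samples, so their values stand side by side and are not independent.

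**Figure D2:**
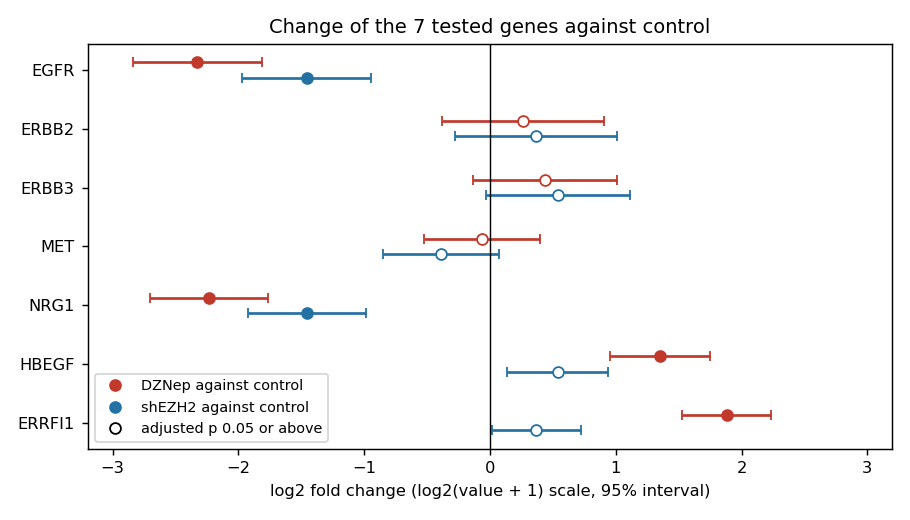
Log2 fold change on the log2(value + 1) scale (horizontal axis) of the 7 tested genes against control with DZNep (red) and shEZH2 (blue). Bars are 95% intervals from limma and open points have an adjusted p of 0.05 or above. EGFR and NRG1 lie left of 0 in both contrasts, from -2.33 to -1.45, and the intervals of ERBB2, ERBB3 and MET cross 0.

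Whether the treatments differed was tested between DZNep and shEZH2 samples directly. ERRFI1 was 2.86-fold lower with shEZH2 than with DZNep (log2 difference -1.51, SE 0.15, n = 2, limma adjusted p = 0.0032). HBEGF was also lower with shEZH2, by a log2 difference of -0.81 (SE 0.17, n = 2, limma adjusted p = 0.030). EGFR was 1.83-fold higher with shEZH2 (log2 difference 0.87, SE 0.22, n = 2, limma adjusted p = 0.048). NRG1 was just short of the threshold, at 0.78 (95% interval 0.31 to 1.25, limma adjusted p = 0.051). For ERBB2, ERBB3 and MET the differences were 0.11 (95% interval -0.54 to 0.75), 0.11 (95% interval -0.46 to 0.68) and -0.33 (95% interval -0.79 to 0.13). Thus 1 member was called higher with shEZH2 and 2 lower, where 4.88% and 4.42% of tested genes were. ERRFI1 was called whichever sample was left out. HBEGF lost its call without DZNep replicate 1, shEZH2 replicate 1 or shEZH2 replicate 2 (limma adjusted p = 0.072, 0.31 and 0.33). EGFR lost it without DZNep replicate 2, shEZH2 replicate 1 or shEZH2 replicate 2 (limma adjusted p = 0.11, 0.39 and 0.25). The EGFR call was lost as well with no filter on low values, a mean of at least 20, a pseudocount of 5 and no intensity trend (limma adjusted p = 0.066, 0.056, 0.051 and 0.051), and it held in 8 of 16 alternatives. NRG1 gained a call without Ctrl replicate 1, Ctrl replicate 2 or DZNep replicate 2 (limma adjusted p = 0.039, 0.039 and 0.035).

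Ratios between receptors within a sample do not depend on scaling between samples. The ratio of EGFR to ERBB2 was 1.98 and 3.69 in control, 0.42 and 0.44 with DZNep and 0.78 and 0.71 with shEZH2. Control samples lay above all treated samples, and the geometric mean of the ratio was 6.31-fold lower with DZNep and 3.64-fold lower with shEZH2. EGFR to ERBB3 was 3.19 and 5.63 in control, 0.62 and 0.57 with DZNep and 1.09 and 0.97 with shEZH2. For EGFR to MET the ratios were 2.52 and 2.33 in control, 0.66 and 0.35 with DZNep and 1.23 and 1.07 with shEZH2. In all 3 ratios the order of the groups was control, shEZH2, DZNep, without overlap. Between ERBB2 and ERBB3 the ratio ran only from 1.30 to 1.62 over the 6 samples. For the ligands, HBEGF to NRG1 went from 0.39 and 0.38 in control to 6.38 and 4.15 with DZNep and 1.67 and 1.56 with shEZH2. These ratios were chosen after the values had been seen and were not tested, and only their changes can be read, since the genes differ in length.

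**Figure D3:**
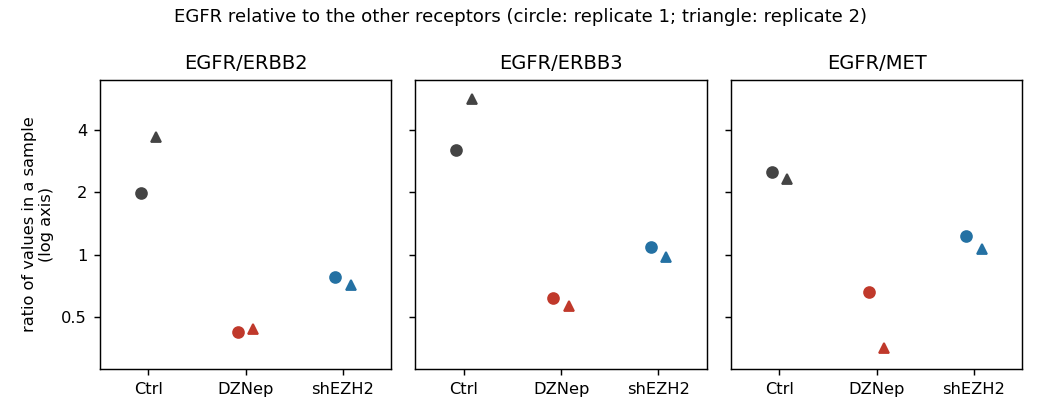
Ratio of the deposited value of EGFR to that of ERBB2, ERBB3 and MET in each sample (vertical log axis, shared by the panels) in control, DZNep and shEZH2 cells, with circles for replicate 1 and triangles for replicate 2. Control samples lie between 1.98 and 5.63, shEZH2 samples between 0.71 and 1.23 and DZNep samples between 0.35 and 0.66.

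Among the remaining receptors and ligands of the pathway, MST1R (RON), the paralog of MET, read 16 and 13 in control against 4 and 3 (DZNep) or 8 and 7 (shEZH2). Both treated groups lay below control. MST1R was called for DZNep, at a log2 fold change of -1.84 (SE 0.25, n = 2, limma adjusted p = 0.0011). For shEZH2 the estimate of -0.91 was not called (SE 0.25, n = 2, limma adjusted p = 0.062). MST1R reached the limit of 10 in the control samples alone, so it entered the test only through the group where it was high. The ligands EGF, NRG2 and MST1 were measured below the limit for testing. EGF read 4 and 4 in control, 2 and 1 with DZNep and 3 and 2 with shEZH2, NRG2 read 4 and 4, 7 and 7, and 6 and 6, and MST1 read 1 and 2, 6 and 6, and 5 and 5. ERBB4, BTC, EPGN, NRG3, NRG4 and HGF were not analysed here.

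A wider set of 89 pathway genes in 8 lists by role held 64 tested genes. With DZNep 16 rose and 12 fell, which is 25.0% and 18.8% of them, near the 22.4% and 20.4% of all tested genes. With shEZH2 7 rose and 1 fell, or 10.9% and 1.56%, against 3.91% and 4.53% of all tested genes. Among those that rose, DUSP6 and SPRY4 entered the test only through treated samples, and ARAF had a single control sample at the limit. ITGB4, which fell, entered only through control samples, as did MST1R and SPINT1 among the genes that fell with DZNep. The filter thus favoured the direction of these genes, and the difference from the shares of all tested genes was not tested. The counts of the single lists below are to be read against the same shares of all tested genes. Their median log2 fold changes were -0.07 and -0.02, against 0.02 and -0.01 for all tested genes. The genes of each list are given without the members. All lists were chosen with earlier results of these data known, so their counts are a description.

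Among genes transcribed in response to MAPK signalling, those called were higher. Of 11 tested, 8 rose with DZNep, none fell and 3 were not called, and the list's median log2 fold change was 1.31. Since the list was chosen with earlier results of these data known, its counts and medians describe the values and are not independent support. With shEZH2 4 rose, none fell, 7 were not called and the median was 0.53. EPHA2, an ephrin receptor, read 37 and 31 in control, 305 and 283 with DZNep and 150 and 131 with shEZH2, log2 fold changes of 3.01 (limma adjusted p = 7.2e-05) and 1.97 (limma adjusted p = 0.0048). IER3, an immediate early response gene, had log2 fold changes of 2.38 (limma adjusted p = 0.00020) and 1.35 (limma adjusted p = 0.015). The other two called with shEZH2, named here after their values were seen, were the ERK phosphatase DUSP6 (1.05, limma adjusted p = 0.028) and the inhibitor SPRY4 (1.03, limma adjusted p = 0.021). DUSP6 and SPRY4 entered the test only through their treated samples, since both had values below 10 in control. DUSP6 read 3 and 4 in control, 12 and 19 with DZNep and 9 and 8 with shEZH2, so no sample of its shEZH2 contrast reached 10. SPRY4 read 4 and 4, 11 and 13, and 10 and 9. At such low values rounding to whole numbers weighs on the fold changes, and the medians of the list include both genes. Among the other 9 genes, 6 rose with DZNep and 2 with shEZH2.

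The list for the activation of hepatocyte growth factor and the partners of MET had 5 tested genes, namely the protease inhibitors SPINT1 and SPINT2, the plexins PLXNB1 and PLXNB2 and the integrin chain ITGB4. SPINT2 and the plexins are named here after their values were seen. With DZNep 4 fell and 1, PLXNB2, was not called (median log2 fold change -1.52), and with shEZH2 1 fell and 4 were not called (median -0.73). ITGB4, which can associate with MET, went from 27 and 23 in control to 1 and 2 with DZNep and 8 and 6 with shEZH2, with log2 fold changes of -3.47 (limma adjusted p = 8.2e-05) and -1.75 (limma adjusted p = 0.012). SPINT1, a protease inhibitor that restrains activation of the growth factor, read 17 and 12, 3 and 1, and 7 and 5, and fell with DZNep (log2 fold change -2.48, limma adjusted p = 0.0020). Its shEZH2 value of -1.19 was not called (limma adjusted p = 0.094). SPINT1 and ITGB4 reached 10 in the control samples alone and so entered the test only through the group where they were high. Of the other 3 genes, 2 fell with DZNep and none was called with shEZH2, where SPINT2 had an adjusted limma p of 0.060. PLXNB1, which fell with DZNep, read 15 and 8 in control, 4 and 5 with DZNep and 12 and 10 with shEZH2. No DZNep sample of PLXNB1 reached 10, so within that contrast only a control sample did.

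Of 6 tested genes for ligand shedding, 1 rose and 2 fell with DZNep, and none was called with shEZH2. The metalloprotease ADAM9 had a log2 fold change of -1.75 with DZNep (limma adjusted p = 0.0025) and RHBDF1, an inactive rhomboid that controls the maturation of the sheddase ADAM17, one of -1.55 (limma adjusted p = 0.0040). ADAM9 differed widely between replicates, at 247 and 476 in control and 79 and 144 with DZNep.

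Receptor feedback and turnover genes were called with DZNep in both directions, where 22.4% of all tested genes were higher and 20.4% lower. With so few genes in the list, the difference from these shares was not tested. Of 15 tested genes, 2 rose (13.3%) and 2 fell (13.3%) with DZNep, and 1 rose with shEZH2. LRIG1, a membrane protein that promotes the degradation of EGFR family receptors, rose with DZNep (15 and 16 in control, 35 and 44 with DZNep, log2 fold change 1.22, limma adjusted p = 0.0013). With shEZH2 it read 20 and 19 (log2 fold change 0.27, limma adjusted p = 0.35). RAB7A, a GTPase of late endosomes, rose with both, with log2 fold changes of 1.00 (limma adjusted p = 0.0033) and 0.85 (limma adjusted p = 0.029). STAM2, an endosomal sorting protein, fell with DZNep (-1.13, limma adjusted p = 0.036). Its control samples differed widely, at 10 and 27, and its DZNep samples, at 6 and 9, lay below the limit for testing.

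For adaptors and kinases, the shares called with DZNep stand beside those of all tested genes, of which 22.4% were higher and 20.4% lower. The lists are small, and the differences from these shares were not tested. Of 14 tested adaptors and lipid kinases, 3 rose (21.4%) and 1 fell (7.14%) with DZNep, and 1 rose with shEZH2. CRKL had a log2 fold change of 1.04 with DZNep (limma adjusted p = 0.0029) and PIK3CB, a catalytic subunit of PI3K, one of -0.96 (limma adjusted p = 0.0096). The transcription factor STAT3 rose with shEZH2 (0.90, limma adjusted p = 0.028) and with DZNep (0.72, limma adjusted p = 0.016). Of 12 tested RAS-MAPK genes, 2 rose (16.7%) and 2 fell (16.7%) with DZNep, and 1 rose with shEZH2. MAP2K2, which encodes the kinase MEK2, fell with DZNep (312 and 250 in control, 116 and 101 with DZNep, log2 fold change -1.43, limma adjusted p = 0.0018). ARAF rose with both, with log2 fold changes of 1.37 (limma adjusted p = 0.0030) and 1.18 (limma adjusted p = 0.026). ARAF read 10 and 7 in control, so a single control sample reached the limit for testing and the gene passed it through its treated samples.

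The count with shEZH2 rested on few samples. Without shEZH2 replicate 1 or replicate 2, 1 of the 64 genes was called with shEZH2, and without Ctrl replicate 2, 4 were. With the values as deposited the split was 10 higher and 3 lower, in a setting where 66.0% of all genes called with shEZH2 were higher, against 46.3% after scaling.

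**Figure D4:**
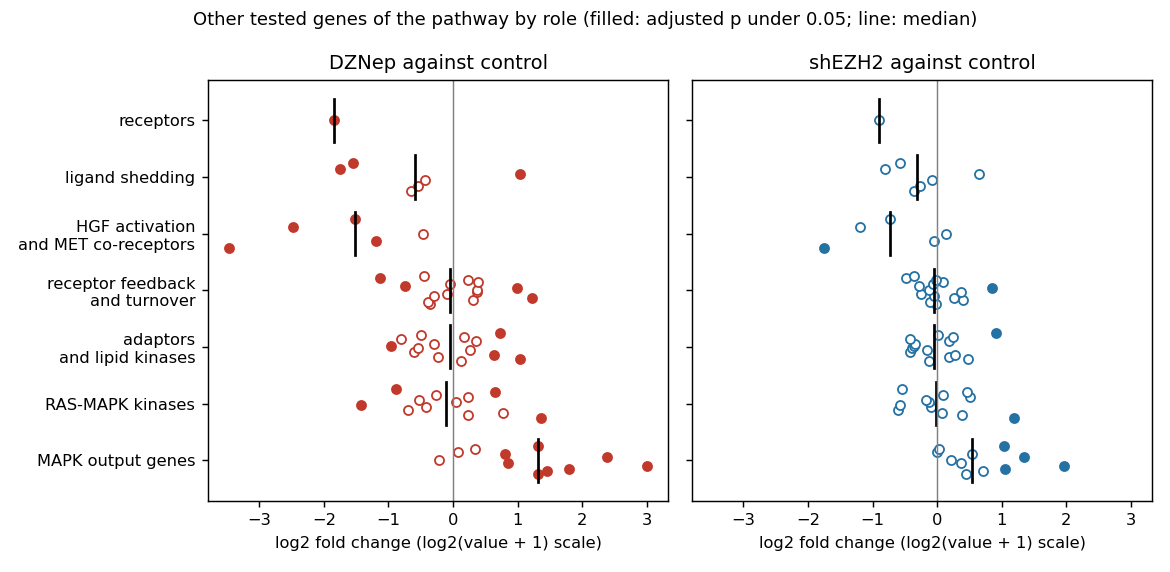
Log2 fold change on the log2(value + 1) scale (horizontal axis) of the 64 other tested pathway genes, by role, with DZNep (left) and shEZH2 (right) against control. Each point is a gene, filled where the adjusted p is under 0.05, and black lines are medians. The MAPK output genes have medians of 1.31 and 0.53, and the list around hepatocyte growth factor and MET has medians of -1.52 and -0.73. These medians include genes that entered the test through treated or control samples alone.

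The genes whose pattern over the 6 samples was nearest to each receptor were found by the root mean square difference between log2 values centred on their own mean. Nearest to EGFR were MEGF6 (0.10) and ALS2CL (0.11). ERBB2 was nearest to S100A16 (0.036) and MANBAL (0.042), ERBB3 to NXN (0.034) and CYB561 (0.045), and MET to ERI1 (0.042) and BMS1 (0.043). With 6 samples in 3 groups many genes share such a pattern, and nothing about shared control follows from it.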

How the data were processed

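RNA-Seq libraries of OVCAR8 cells were prepared by the authors after removal of ribosomal RNA with a stranded kit, and reads were trimmed with fastp, aligned to GRCh38 with STAR and quantified with RSEM. The deposited values are a score per gene and sample that the authors scaled to a common total and rounded. How they did so is not given in the sources used here. Because these are not counts, the study's edgeR test could not be used. A linear model with moderated variances (limma 3.58.1, R 4.3.3, prior variance allowed to follow intensity) was fitted to log2(value + 1) after unweighted TMM factors (30% of log ratios and 5% of mean values trimmed at each end). All 6 samples, grouped by their labels, entered 1 fit of group means without a replicate term. The fit was tested on simulated data. Members and lists were chosen with earlier results of these data known. Apart from the members, genes were named by a rule: EZH2, every measured receptor and ligand, in each other list the 2 called genes with the largest change per contrast, and the 2 genes nearest in pattern to each receptor. Other scaling, filters, pseudocounts, fits, thresholds and samples left out were tried. Read depth is unknown, so no counting interval was computed. Gene positions came from GENCODE v44 and promoters from RefSeq (GRCh38.p14, 8 of the 10 members).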

Additional observations from a re-analysis of the deposited data

How the results depend on the processing

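With groups of 2, the spread rests on 3 residual degrees of freedom shared by all groups before moderation across genes, and the deposited numbers carry no depth. Of 336 member values recomputed under 16 alternatives, 301 kept their direction and side of the threshold, 18 lost a call, 10 gained one and 7 changed sign. The DZNep calls of EGFR, NRG1, HBEGF and ERRFI1 held in all 16. MET with DZNep, not called in any setting, turned to 0.0085 with the values as deposited and ran from -0.22 to 0.099 with 1 sample left out. ERBB2 ran from -0.077 to 0.60 with DZNep and from -0.19 to 0.41 in the direct comparison, and ERBB3 from -0.10 to 0.32 in the latter, again with 1 sample left out. The cause was not tested.

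Leaving out 1 sample, the members called numbered 0 to 2 for shEZH2 and 1 to 4 for shEZH2 against DZNep, and the wider pathway genes 1 to 12 and 0 to 14. For DZNep these counts ran from 4 to 5 and from 22 to 33. A lone sample is then assumed to vary like the other groups. When both shEZH2 samples were merged into 1 mean sample, the counts were 0 and 1 for members and 1 and 0 for wider genes. At an absolute log2 fold change above 1, with p adjusted or unadjusted, 1 member was called between the treatments, and 3 wider genes were with p adjusted. The wider counts for shEZH2 and between treatments were 13 and 10 with the values as deposited. They were 4 for shEZH2 at a mean of at least 20, and 15 between treatments when only the groups compared were fitted.

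Replicate numbers ran together in control and DZNep (correlation of deviations 0.79) but not between control and shEZH2 (-0.02) or DZNep and shEZH2 (-0.04). The main fit takes no pairs in any contrast, so a shift shared by control and DZNep replicates stays in its spread. On the log2 scale replicate 2 minus replicate 1 was -0.68 in control and -0.60 with DZNep for ERBB2. For ERBB3 it was -0.59 and -0.42, and for EGFR 0.20 and -0.53. With the replicate block, 4 members were called with DZNep, 4 with shEZH2 and 4 between treatments, and 38, 22 and 20 wider genes. The members gained were HBEGF and ERBB3 with shEZH2 (limma adjusted p = 0.033 and 0.036) and NRG1 between treatments (limma adjusted p = 0.0034). Since replicate numbers of shEZH2 did not run with those of the other groups, the shared term has no basis in the shEZH2 contrasts. No conclusion is drawn from the calls gained there. The log2 difference between replicates had an SD over genes of 0.14 in shEZH2, against 0.43 in control and 0.45 with DZNep.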
